A study of Homo sapiens with 12 samples.

Results

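The glutathione S-transferase mu family of 5 genes (GSTM1, GSTM2, GSTM3, GSTM4 and GSTM5) was followed in cultured human neuroblastoma cells of the BE(2)-C line that had been given a plasmid for the transcription factor GRHL1. Members were taken as all array probes whose platform gene symbol is one of the 5, which gave 9 of 47323 probes. GSTM1 had 3, GSTM2 and GSTM4 2 each, and GSTM3 and GSTM5 1 each. The plasmid was pTRex-GRHL1 and its control the empty vector pTRex-Dest30, each given as 2 µg with effectene, and total RNA was profiled 24, 48 and 72 h later on Illumina BeadChips. Each plasmid had 2 arrays at each time (12 arrays, 6 groups). No label says whether the replicates came from separate cultures, and the spread behind each p-value may therefore be technical. The transfection was transient and the RNA was taken from whole cultures, so the share of cells that took up plasmid and the amount of RNA per cell cannot be told apart.

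Glutathione S-transferases join the thiol glutathione to electrophilic molecules, which are then exported as conjugates, and so protect cells from reactive drugs, quinones and lipid peroxidation products. The mu class works as cytosolic dimers. GSTM1 is the member best known for whole-gene deletions that are common in human populations. GSTM2 is known for conjugating aminochrome, an oxidation product of dopamine, and GSTM3 is a divergent member found in brain and testis. In many cell types the transcription factor NRF2 drives several glutathione transferase genes through antioxidant response elements.

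The family was chosen by the measured GRHL1 minus empty vector differences of these arrays, which were in view when it was proposed. Those differences are therefore given below as values with standard errors and without a p-value, and nothing is supported with them. Tests are given for the time course in empty vector cells and for genes outside the family.

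The 5 genes lie side by side on chromosome 1 in RefSeq's GRCh38.p14 annotation, within 84.9 kb. GSTM4 spans chr1:109656099-109667727, GSTM2 chr1:109668057-109683997, GSTM1 chr1:109687817-109693745, GSTM5 chr1:109711751-109718268 and GSTM3 chr1:109733937-109741038. GSTM3 is on the minus strand and the other members on the plus strand. The 250 bases before each start in RefSeq's promoter table (GRCh38.p14) are shown because the members are neighbours and their differences are given below. Capitals mark every match, on either strand, to the GC box (GGGCGG), to the core of the antioxidant response element (TGACNNNGC) and to a relaxed grainyhead motif (AACNGGTT). The start used for GSTM5 in that table lies inside the annotated gene span.
GSTM1, chr1:109687567-109687816, plus strand: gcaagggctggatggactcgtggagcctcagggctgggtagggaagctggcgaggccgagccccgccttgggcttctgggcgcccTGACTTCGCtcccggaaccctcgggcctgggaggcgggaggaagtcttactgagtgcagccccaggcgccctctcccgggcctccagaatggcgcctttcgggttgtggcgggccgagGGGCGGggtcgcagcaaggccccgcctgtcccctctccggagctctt
GSTM2, chr1:109667807-109668056, plus strand: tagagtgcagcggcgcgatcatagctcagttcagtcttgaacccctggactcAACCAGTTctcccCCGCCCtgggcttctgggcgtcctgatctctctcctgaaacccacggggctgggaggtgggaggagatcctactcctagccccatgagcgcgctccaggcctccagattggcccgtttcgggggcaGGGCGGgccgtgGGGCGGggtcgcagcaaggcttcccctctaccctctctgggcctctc
GSTM4, chr1:109655849-109656098, plus strand: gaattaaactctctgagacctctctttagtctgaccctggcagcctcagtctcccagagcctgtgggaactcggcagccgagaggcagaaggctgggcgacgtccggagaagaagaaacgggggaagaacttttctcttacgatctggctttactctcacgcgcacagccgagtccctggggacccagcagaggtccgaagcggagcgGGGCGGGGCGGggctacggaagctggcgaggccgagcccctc
GSTM5, chr1:109712001-109712250, plus strand: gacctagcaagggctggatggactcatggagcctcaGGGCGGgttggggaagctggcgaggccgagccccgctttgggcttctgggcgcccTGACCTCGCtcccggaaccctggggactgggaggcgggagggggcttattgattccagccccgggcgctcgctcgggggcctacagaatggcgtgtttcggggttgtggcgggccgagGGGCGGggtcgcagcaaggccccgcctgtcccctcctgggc
GSTM3, chr1:109741039-109741288, minus strand: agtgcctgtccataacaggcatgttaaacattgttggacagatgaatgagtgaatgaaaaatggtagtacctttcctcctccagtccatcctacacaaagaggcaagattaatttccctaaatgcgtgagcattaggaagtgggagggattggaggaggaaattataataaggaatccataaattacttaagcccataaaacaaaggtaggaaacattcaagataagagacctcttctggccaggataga

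GSTM1 and GSTM5 were the closest pair in these windows, with 85.6% identity over a global alignment. GSTM1 and GSTM2 shared 68.1% and GSTM2 and GSTM5 65.9%, while pairs with GSTM4 ran from 40.8% to 49.8% and pairs with GSTM3 from 39.9% to 41.8%. GC boxes were found in 4 of 5 members, all but GSTM3, against 42.6% of 35116 promoters of the same length. The 2 boxes in GSTM4 overlap by 1 base. The antioxidant core was found in GSTM1 and GSTM5 (10.9% of all promoters). The relaxed grainyhead motif was found once, in GSTM2 on the minus strand (1.49% of all promoters), and the full consensus AACCGGTT, which the relaxed motif includes, in 0 of 5 (0.117%). The E-box CACGTG (6.34%) and TATAAA (10.7%) were found in 0 of 5. A match describes letters only, and the absence of one covers only these windows.

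On each array between 17950 and 19427 probes were detected, and 16501 probes that name 1 gene and were detected on at least 2 arrays were tested. A scanner table and a normalized table were deposited, and their sample names conflict for 7 of 12 columns, of which 6 change the plasmid. All conflicts concern 48 and 72 h. The names of the normalized table were followed because of the bright GRHL1 probe, ILMN_1651286. With them it read 9111 and 12964 at 24 h, 6225 and 4669 at 48 h and 5968 and 5459 at 72 h in GRHL1 cells. In empty vector cells it read between 92.3 and 122.8. The other GRHL1 probes, ILMN_1769934 and ILMN_1795767, read at most 134.0 and 122.6 under either plasmid, so the choice of names rests on ILMN_1651286. With the names in the scanner table the member differences at 48 and 72 h turn negative: the median difference of the tested members over the 3 times would be -0.28 in place of 0.86, and 0 probes would be called in any comparison. Noradrenergic neuroblastoma markers were present on every array (8 of 8 on the array, summed intensity 55892.5 to 60825.5 in empty vector and 55610.5 to 59099.7 in GRHL1 cells). Of 5 epithelial markers 0 were above the limit on all arrays. EPCAM was above it on 7 of 12 arrays, KRT18 on 2, and KRT5, KRT14 and CDH1 on none. Their summed intensities were 498.7 to 591.5 in empty vector and 519.8 to 553.1 in GRHL1 cells. Fibroblast markers DCN, LUM and PDGFRB were above it on every array, with COL1A1 and COL1A2 on 2 each (summed intensity of the 5, 2051 to 2744 in empty vector and 1824 to 2356 in GRHL1 cells). Of 3 leukocyte markers CD14 alone was above it on all arrays (sums 390.4 to 441.0 and 394.1 to 418.2), and of 4 hepatocyte markers ALB alone (516.4 to 597.8 and 508.2 to 596.9). TTR was above it on 7 arrays, APOA1 and PTPRC on 1 each, and SERPINA1 and CD3E on none. The part of these other markers in the results was not tested.

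Intensity is given in the linear units of the normalized table, where 128.3 is the detection limit. Log2 differences come from background-corrected values with an offset of 16, which understates differences of dim probes. Levels of different probes are not compared.

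The brighter GSTM1 probe, ILMN_2391861, read 1224 and 1215 at 24 h, 1416 and 1440 at 48 h and 1635 and 1499 at 72 h in empty vector cells. In GRHL1 cells it read 1470 and 1622 at 24 h, 3248 and 3209 at 48 h, and 3803 and 3306 at 72 h. Every GRHL1 array lay above both empty vector arrays of its time, and the distance was small at 24 h and more than the empty vector level itself at 48 and 72 h. The log2 difference was 0.36 ± 0.11 (SE, 2 arrays against 2) at 24 h, 1.21 ± 0.11 at 48 h and 1.21 ± 0.11 at 72 h.

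The brighter GSTM2 probe, ILMN_2201580, read 1083 and 955.7 at 24 h, 1211 and 1252 at 48 h and 1432 and 1494 at 72 h in empty vector cells. In GRHL1 cells it read 1319 and 1340 at 24 h, 3206 and 2775 at 48 h and 3441 and 2856 at 72 h. The groups did not overlap at any time, with log2 differences of 0.41 ± 0.13, 1.32 ± 0.13 and 1.14 ± 0.13. From 24 to 48 h the GRHL1 cells thus gained 1.21 ± 0.13 on the log2 scale, and from 24 to 72 h 1.28 ± 0.13, while the plasmid transcript itself was brightest at 24 h.

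Each of these genes has a dimmer probe whose difference was also smallest at 24 h. GSTM1 ILMN_1668134 read 173.5 and 143.8, then 178.7 and 157.0, then 178.2 and 160.2 in empty vector cells at 24, 48 and 72 h. In GRHL1 cells it read 169.1 and 187.4, then 292.3 and 277.6, then 338.5 and 263.9. The plasmids overlapped at 24 h (0.31 ± 0.20, and 0.08 to 0.54 with either empty vector array left out) and were apart at 48 h (1.11 ± 0.20) and 72 h (1.18 ± 0.20). GSTM2 ILMN_1713162 read 210.0 and 219.9, 232.7 and 226.6, and 256.5 and 271.2 in empty vector cells, against 217.1 and 238.5, 356.2 and 337.6, and 511.2 and 466.1 in GRHL1 cells. It overlapped at 24 h as well (0.13 ± 0.11) and had differences of 0.78 ± 0.11 at 48 h and 1.09 ± 0.11 at 72 h.

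The third GSTM1 probe did not take part. ILMN_1762255 was detected on 0 of 12 arrays and read between 99.98 and 129.3, with 1 array, a GRHL1 array at 72 h, just above the limit. The GSTM1 probes therefore disagree: 2 carry the plasmid difference and 1 stays at background under both plasmids. The platform annotation gives the same reference transcript for all 3. Whether the 2 responding probes read GSTM1 or a neighbouring paralog was not tested, since probe sequences were not used here.

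GSTM3 was read at ILMN_1736184. It read 159.8 and 170.2 at 24 h, 149.98 and 156.1 at 48 h and 149.9 and 150.2 at 72 h in empty vector cells. In GRHL1 cells it read 223.6 and 199.97, 222.7 and 250.7, and 246.5 and 262.4. All 6 GRHL1 arrays were above all 6 empty vector arrays, and the log2 difference was 0.58 ± 0.13 at 24 h, 0.96 ± 0.13 at 48 h and 1.16 ± 0.13 at 72 h. From 24 to 48 h its plasmid difference grew by 0.39 ± 0.18, against 0.91 ± 0.18 for GSTM2 ILMN_2201580, and this contrast between the probes was not tested.

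The 2 GSTM4 probes, which the platform annotation ties to different reference transcripts of the gene, gave different time courses. ILMN_1716979 read 157.4 and 199.6, 164.9 and 159.0, and 179.9 and 155.6 in empty vector cells, and 164.1 and 184.0, 255.1 and 243.3, and 316.4 and 276.0 in GRHL1 cells. Its log2 difference was -0.02 ± 0.20 at 24 h (95% interval -0.46 to 0.41), moving between -0.31 and 0.26 with either empty vector array left out, and 0.93 ± 0.20 and 1.18 ± 0.20 later. ILMN_1651800 read 117.0 and 118.7, 128.7 and 138.0, and 124.0 and 132.6 in empty vector cells, and 159.0 and 143.2, 180.8 and 185.6, and 159.9 and 165.8 in GRHL1 cells. It was below the limit on both empty vector arrays at 24 h, where the GRHL1 cells read at least 1.18-fold higher, and between 124.0 and 138.0 on the other 4 empty vector arrays. Its fitted log2 differences were 0.75 ± 0.13, 0.79 ± 0.13 and 0.63 ± 0.13. Against 24 h they changed by 0.05 ± 0.18 at 48 h (95% interval -0.35 to 0.44) and by -0.12 ± 0.18 at 72 h (-0.52 to 0.28). The 24 h difference was as low as 0.36 under alternative ways of processing the data. Between the GSTM4 probes the plasmid differences were 0.77 ± 0.30 apart at 24 h and -0.55 ± 0.30 apart at 72 h (ILMN_1651800 minus ILMN_1716979).

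GSTM5 was not detected. Its probe ILMN_1750790 read between 96.2 and 114.4 on the 12 arrays, below the limit on each, under both plasmids. No fold is given for it or for ILMN_1762255.

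**Figure D1:**
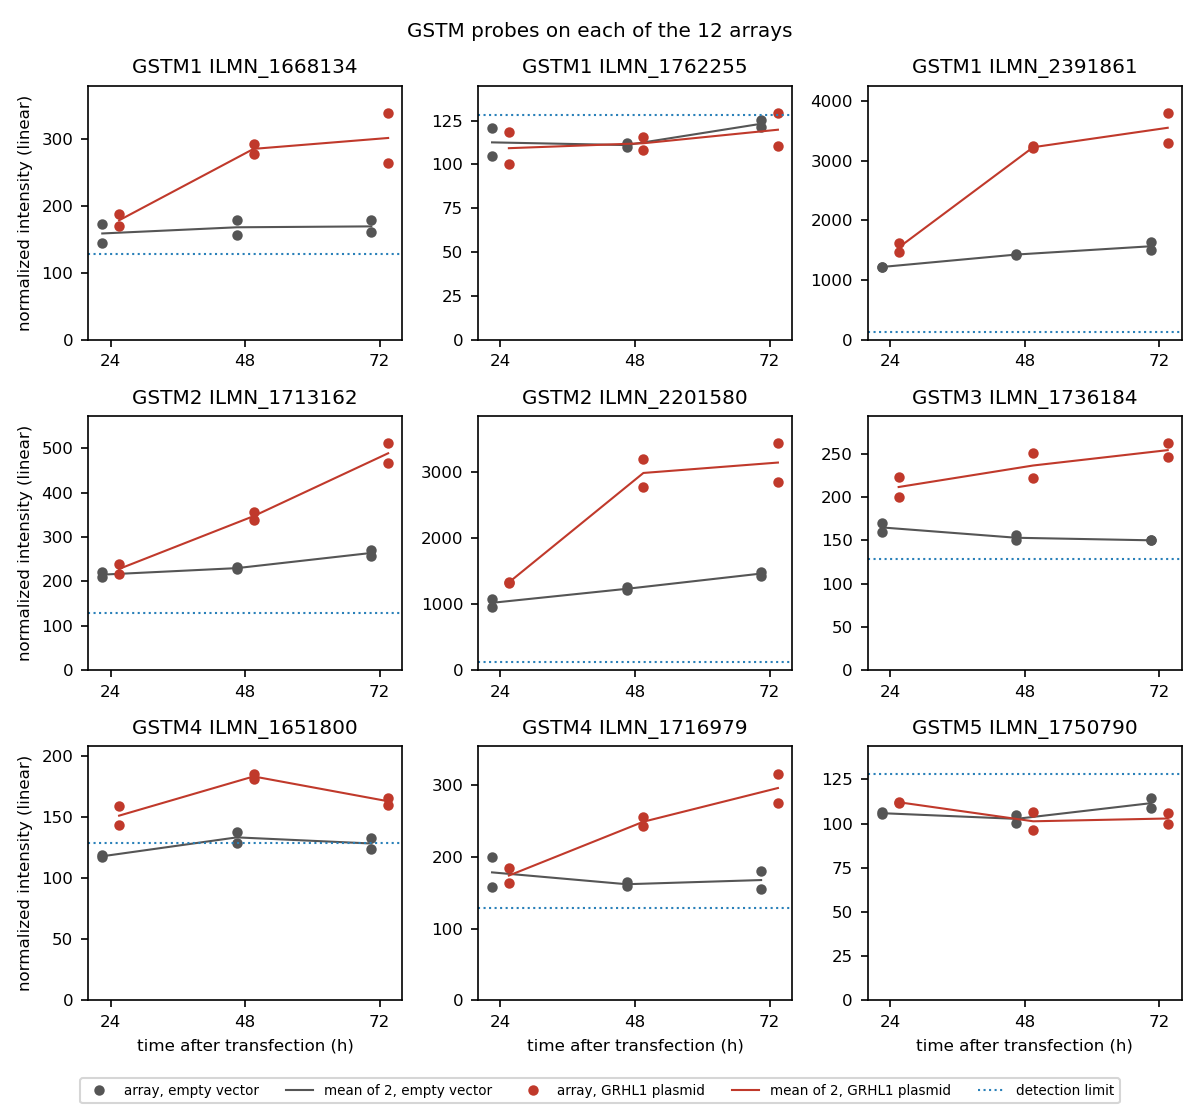
Normalized intensity (linear units, each axis from 0) of the 9 GSTM probes against time after transfection, with 1 point per array, lines through the means of 2 arrays and the detection limit of 128.3 dotted. GSTM1 ILMN_2391861 and GSTM2 ILMN_2201580 separate by plasmid mainly from 48 h, these 2 as well as GSTM3 and GSTM4 ILMN_1651800 do not overlap by plasmid at 24 h, and GSTM1 ILMN_1762255 and GSTM5 stay near or below the limit.

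Of the 9 probes 7 were tested. Of these, 6 were detected on all 12 arrays and so passed the filter whatever the plasmid, and ILMN_1651800 was detected on 10. Averaged over the 3 times their log2 differences ran from 0.67 ± 0.06 (GSTM2 ILMN_1713162) to 0.96 ± 0.07 (GSTM2 ILMN_2201580), with a median of 0.86 beside -0.01 for all 16501 probes. In the mean comparison limma called 7 of 7 higher, where 1.16% of all tested probes were called higher. At 24 h it called 0 of 7 (0.279% of all probes higher), at 48 h 5 of 7 (0.358%) and at 72 h 4 of 7 (0.224%). The count at 48 h was 2 with a replicate block or without a detection filter, and from the 4 arrays of a time alone it was 1 at 48 h and 0 at 72 h. Both GRHL1 arrays lay above both empty vector arrays for 4 of 7 at 24 h (19.7% of all tested probes), and for 7 of 7 at 48 h (17.6%) and at 72 h (16.8%). It did so at all 3 times for 4 of 7 (2.52%). Nothing is read from these counts, since this contrast was in view when the family was chosen.

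**Figure D2:**
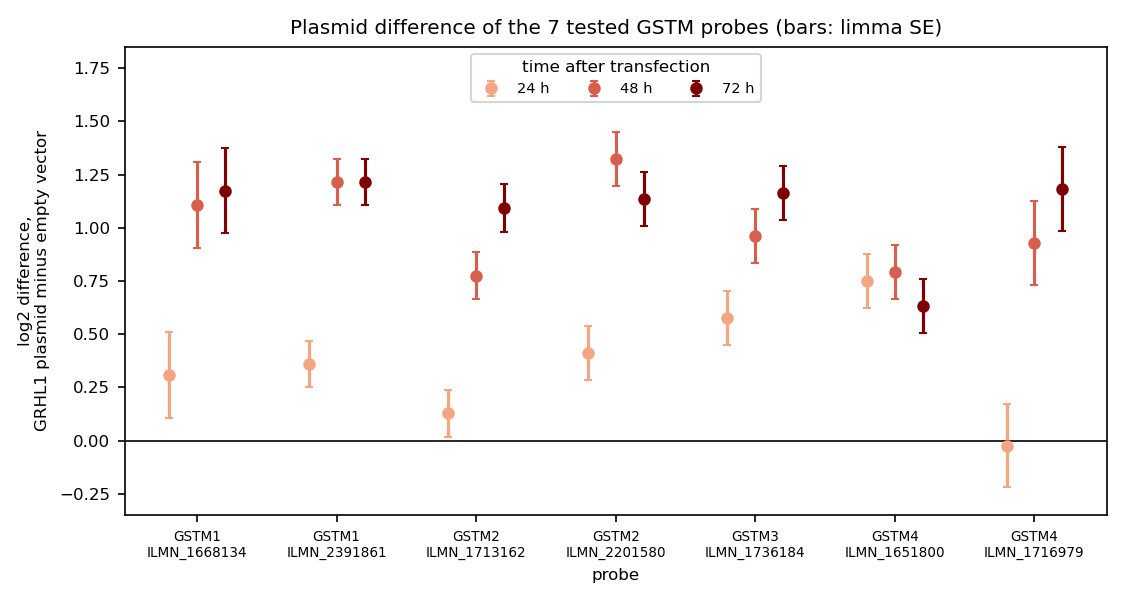
Log2 difference, GRHL1 plasmid minus empty vector, for the 7 tested probes at 24, 48 and 72 h, with limma standard errors as bars. Differences at 24 h range from -0.02 to 0.75 and those at 72 h from 0.63 to 1.21. ILMN_1651800 alone has a smaller fitted difference at 72 h than at 24 h (change -0.12 ± 0.18).

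Probes were then compared with each other through their log2 ratio on each array, which cancels what an array adds to both. GSTM1 ILMN_2391861 and GSTM2 ILMN_2201580 kept nearly the same ratio on all 12 arrays, with a standard deviation of 0.10, and their plasmid differences were -0.05 ± 0.10, -0.11 ± 0.10 and 0.08 ± 0.10 apart at 24, 48 and 72 h (SE from the spread within the 6 groups). The 2 probes of GSTM2 were -0.28 ± 0.12, -0.55 ± 0.12 and -0.04 ± 0.12 apart at the same times (ILMN_1713162 minus ILMN_2201580), farther than the GSTM1 and GSTM2 probes at 24 and 48 h and not at 72 h. GSTM1 ILMN_1668134 stayed within -0.22 ± 0.18 of ILMN_2201580 at each time. The ratios of GSTM2 ILMN_2201580 to all the dimmer probes varied more. Standard deviations over the 12 arrays were 0.44 for GSTM3, 0.40 for ILMN_1651800 and 0.34 for ILMN_1716979. The dimmer probes of GSTM2 and GSTM1 themselves gave 0.25 (ILMN_1713162) and 0.20 (ILMN_1668134). For ILMN_1716979 the spread within the 6 groups alone was 0.27. Probe brightness and gene therefore cannot be told apart in these deviations. The ratio of GSTM2 ILMN_2201580 to GSTM3 was higher at 48 and 72 h than at 24 h under both plasmids. Their plasmid differences were only -0.16 ± 0.22, 0.36 ± 0.22 and -0.03 ± 0.22 apart. A common ratio is what 1 transcript read by 2 probes would give and also what 2 transcripts with equal changes would give, and these intensities cannot tell them apart.

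**Figure D3:**
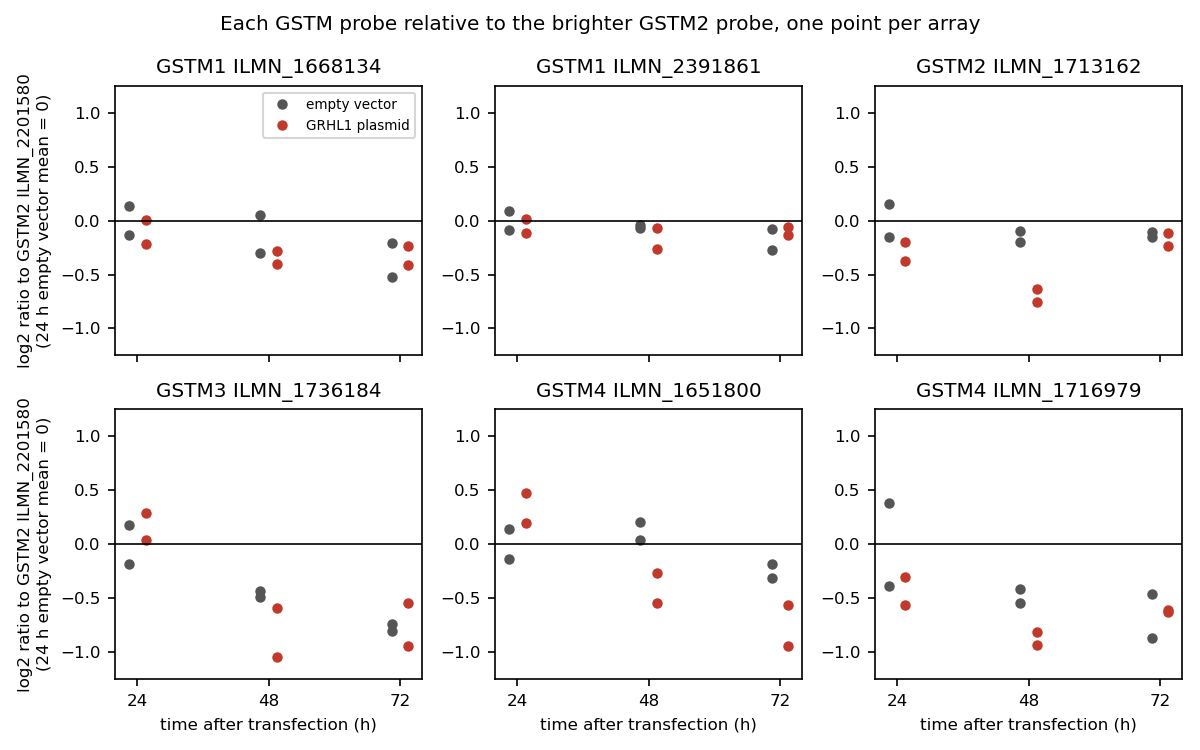
Log2 ratio of each other tested probe to GSTM2 ILMN_2201580 on each of the 12 arrays against time, set to 0 at the mean of the 24 h empty vector arrays. The points of GSTM1 ILMN_2391861 stay closest to 0, with a standard deviation of 0.10. Those of GSTM3 spread with a standard deviation of 0.44 and fall with time under both plasmids. Apart from ILMN_2391861 the probes shown are dimmer.

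The time course in empty vector cells was tested, since the choice of the family did not use this contrast. Its arrays are, however, the empty vector side of the plasmid differences, so the test is not independent of the choice. None of the 7 probes passed at 48 h against 24 h (limma, Benjamini-Hochberg, 1 of 16501 probes called, 0.00606%, and 1533 with an unadjusted p under 0.05) or at 72 h against 24 h (0 called, 0%, and 1644). GSTM2 ILMN_2201580 had the smallest p at 72 h, with a log2 difference of 0.56 ± 0.13 (adjusted p = 0.245, 95% interval 0.28 to 0.84), and both 72 h arrays read above both 24 h arrays. It passed under 2 alternatives, with an adjusted p of 0.00724 with a variance trend and robust estimation and of 0.0451 without background correction. GSTM2 ILMN_1713162 gave 0.43 ± 0.11 (adjusted p = 0.288) and GSTM1 ILMN_2391861 0.38 ± 0.11 (adjusted p = 0.326). GSTM3 gave -0.21 ± 0.13 (adjusted p = 0.613, interval -0.49 to 0.07) and GSTM4 ILMN_1716979 -0.11 ± 0.20 (adjusted p = 0.903, interval -0.55 to 0.33). At 48 h the 7 differences ran from -0.18 to 0.42, the highest for GSTM4 ILMN_1651800 (0.42 ± 0.13, adjusted p = 0.371, interval 0.14 to 0.70). Unadjusted limma p at 48 h was 0.00814 for ILMN_1651800, 0.0414 for ILMN_2201580 and 0.0498 for ILMN_2391861. At 72 h it was 0.00134 for ILMN_2201580, 0.00352 for ILMN_1713162, 0.00567 for ILMN_2391861 and 0.0357 for ILMN_1651800. The remaining probes had an unadjusted p above 0.05 at both times.

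Genes around the family were examined in 8 lists, each gene at its brightest tested probe. Averaged over the times, 0 of 71 tested genes (112 given) passed in the plasmid comparison by limma, where 1.26% of all probes were called in either direction. An unadjusted limma p under 0.05 was found for 9 of the 71 genes and for 2037 of all 16501 probes tested. The differences of the 71 genes ran from -0.41 to 0.33 with a median of -0.01, and 33 of 71 were above 0. No contrast with the members is drawn, since those were chosen with their differences in view. The lists were also chosen with earlier results of these data known. A missed threshold does not show that a gene did not change, and for 3 of the 71 the 95% interval reached above 0.5. Intervals reaching far on the negative side, where the lowest difference was -0.41, were not counted.

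The list of other cytosolic and mitochondrial glutathione transferases had 0 of 10 genes called and a median of -0.01. GSTK1, the mitochondrial kappa form, read 987.3 in empty vector and 897.5 in GRHL1 cells (-0.15 ± 0.05, adjusted p = 0.306), and GSTA3, near the limit, gave -0.26 ± 0.11 (adjusted p = 0.347). The microsomal transferases had 0 of 5 called (median 0.06), with MGST2 at 0.14 ± 0.06 (adjusted p = 0.343) and ALOX5AP, the arachidonate 5-lipoxygenase activating protein, at -0.30 ± 0.11 (adjusted p = 0.295) near the limit. These lists hold other glutathione transferase genes and genes grouped with them.

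Supply and recycling of glutathione came next. In the synthesis and breakdown list 0 of 9 were called (median 0.05), with SLC3A2, the heavy chain of the cystine transporter, at 0.12 ± 0.06 (adjusted p = 0.424) and the cyclotransferase GGCT at 0.14 ± 0.07 (adjusted p = 0.432). Among peroxidases, reductase and glutaredoxins 0 of 13 were called (median -0.05), with GLRX2 at 0.16 ± 0.07 (adjusted p = 0.42, and -0.13 and 0.16 from its other probes) and GLRX3 at -0.11 ± 0.05 (adjusted p = 0.438). The thioredoxin and peroxiredoxin list had 0 of 10 (median 0.01), with PRDX4 at 0.14 ± 0.08 (adjusted p = 0.55) and TXNRD2 at 0.08 ± 0.06 (adjusted p = 0.6). Of the transporters that export conjugates 0 of 4 were called (median -0.11), with ABCC3 at -0.16 ± 0.10 (adjusted p = 0.556) and the multidrug pump ABCB1 at -0.12 ± 0.07 (adjusted p = 0.561).

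In the list of other detoxification enzymes 0 of 12 were called (median 0.12) and in the NRF2 pathway list 0 of 13 (median -0.04). NQO1, a quinone reductase that is a standard NRF2 target and stands in both lists, read 713.5 in empty vector and 823.0 in GRHL1 cells, a log2 difference of 0.22 ± 0.06 (adjusted p = 0.175), and it passed with a variance trend and robust estimation (adjusted p = 0.044). ALDH1A1, an aldehyde dehydrogenase whose 6 empty vector arrays all read below the limit, gave 0.33 ± 0.11 (adjusted p = 0.254, and 0.45 with adjusted p = 0.0329 without replicate 2 of empty vector at 24 h). CUL3, the ubiquitin ligase scaffold that turns NRF2 over and was below the limit on 4 of 6 empty vector arrays, gave -0.41 ± 0.12 (adjusted p = 0.182, and -0.53 with adjusted p = 0.0237 without replicate 1 of empty vector at 48 h).

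**Figure D4:**
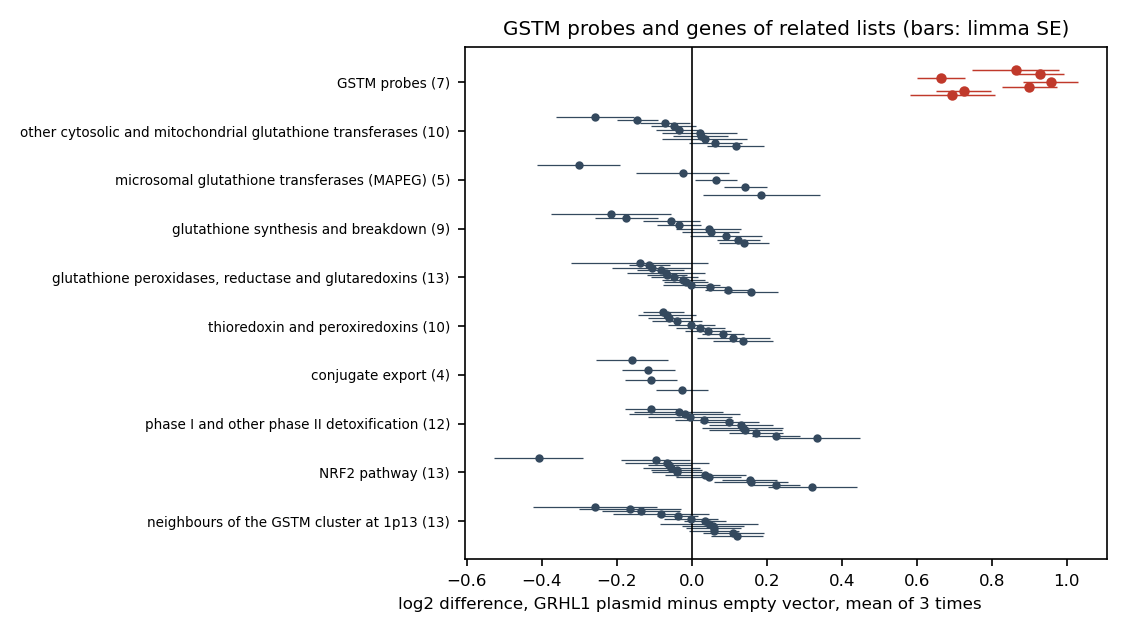
Log2 difference, GRHL1 plasmid minus empty vector, averaged over the 3 times, for the 7 GSTM probes and for each tested gene of 9 related lists, with limma standard errors as bars. The GSTM probes lie between 0.67 and 0.96 and the listed genes between -0.41 and 0.33. The GSTM genes were chosen with these differences in view.

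Genes flanking the cluster were read in the same way. Of 13 tested neighbours (22 given) 0 were called (median 0.04), with CYB561D1 at 0.12 ± 0.07 (adjusted p = 0.534, and -0.13 from a second probe) and EPS8L3, the nearest gene beyond GSTM3, at -0.26 ± 0.16 (adjusted p = 0.584). On the side of GSTM4 the nearest tested gene was GNAT2 (0.05 ± 0.13, adjusted p = 0.936), since AMPD2 had no tested probe. GNAI3, a G protein subunit gene next to it, gave 0.06 ± 0.07 (adjusted p = 0.819). Both are named for their position, after their values were seen.

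**Figure D5:**
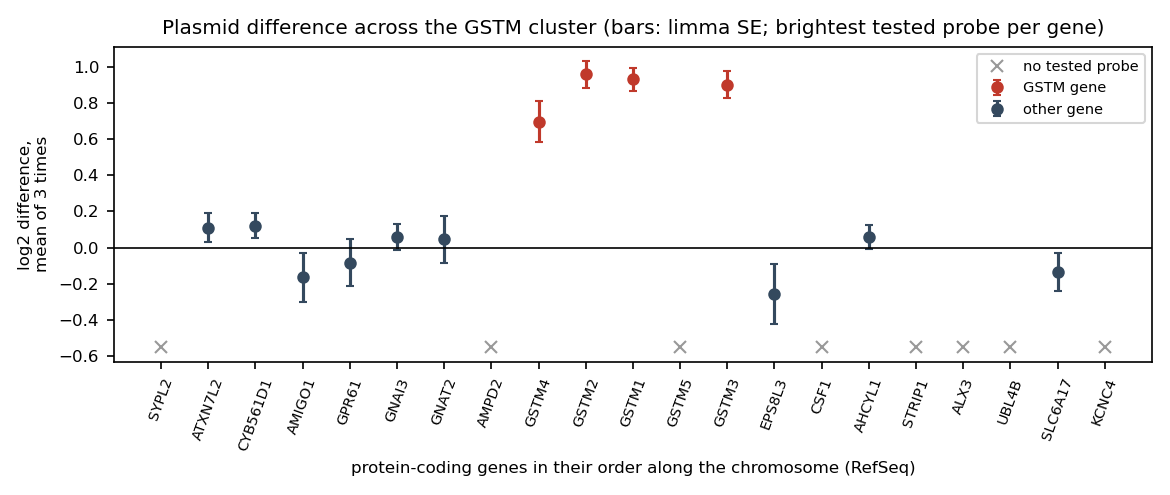
Log2 difference averaged over the 3 times for protein-coding genes in their order along chromosome 1, each at its brightest tested probe, with limma standard errors as bars and crosses for genes without a tested probe. GSTM4, GSTM2, GSTM1 and GSTM3 lie between 0.70 and 0.96 and the tested flanking genes between -0.26 and 0.12. The GSTM genes were chosen with these differences in view.

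The genes whose log2 values over the 12 arrays were most like GSTM2 ILMN_2201580, the member probe with the largest mean difference, were found by Pearson correlation over all tested probes. They were SCPEP1, a serine carboxypeptidase (r = 0.96), CTSH, the lysosomal protease cathepsin H (r = 0.96), MGP, matrix Gla protein (r = 0.95), ARSD, an arylsulfatase (r = 0.94), and the surface glycoprotein gene CD24 (r = 0.94). The points share the plasmid groups and times, so r mainly orders genes by their group pattern. CTSH differed by 0.28, 1.05 and 1.29 on the log2 scale at 24, 48 and 72 h, and SCPEP1 by 0.40, 0.80 and 0.68. MGP already differed by 1.32 at 24 h, ahead of 2.17 and 2.28 later. Among the members themselves r was 0.99 between GSTM2 ILMN_2201580 and GSTM1 ILMN_2391861, 0.78 between ILMN_2201580 and GSTM3, and 0.67 between the 2 GSTM4 probes.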

How the data were processed

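Deposited were a scanner table with linear intensity and a detection p-value for each of 47323 probes, per the file headers, and a normalized table of linear intensity, with a method not given in the sources used here (array medians 119.7 to 121.0). The detection p-values were deposited without a stated sidedness. A probe counted as detected at p under 0.01 with a signal above the array's background, the median of probes with p above 0.9. Scanner columns matched normalized columns by rank with a correlation of at least 0.99997 (next best 0.876), with 7 names in conflict. The limit of 128.3 is the normalized level under which 95% of probes not detected fell.

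The normalized intensity was corrected with limma's normexp model (offset 16) and put on the log2 scale, with no further scaling, and 1 missing value took its probe's median. Probes naming 1 gene (30113, with 8 naming several and 17202 none) and detected on at least 2 arrays were fitted with limma 3.58.1 in R 4.3.3 (a mean for each group, 6 residual and 3.85 prior degrees of freedom), with Benjamini-Hochberg adjustment over all 16501 and a threshold of 0.05. SE is limma's moderated standard error. The number of arrays limits the precision. Same-numbered arrays of a time deviated with correlations of 0.12, 0.03 and 0.02, not all above 0.1, so no pairs were fitted.

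Genes named were all member probes, up to 4 called genes of each of 9 lists or else the 2 of smallest p, GRHL1 and MYCN as checks, and the 5 genes most like the member probe of largest difference. Members and lists were chosen with earlier results of these data known. MYCN enters only as a marker. Fits were tested on simulated data with known changes put into the GRHL1 arrays. Of changes of 0.5 on the log2 scale, 72% were called in the mean comparison and 13 to 22% at single times. Of changes of 1, 98% were called in the mean comparison and 66 to 72% at single times. Promoters were searched in Python 3.11.15 and aligned with biopython 1.88, and plots were made with matplotlib 3.10.9, numpy 2.4.6 and pandas 2.3.3.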

Additional observations from a re-analysis of the deposited data

How the results depend on the processing

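Every member kept its sign over the 3 times in all alternatives but one. With the scanner table's own names the median of the 7 tested probes was -0.28, and GSTM1 ILMN_1668134 gave -0.35, ILMN_2391861 -0.28, GSTM2 ILMN_1713162 -0.34, ILMN_2201580 -0.20, GSTM3 -0.24 and GSTM4 ILMN_1716979 -0.42, while ILMN_1651800 gave 0.05. At 48 h ILMN_1668134 then gave -0.65, ILMN_2391861 -0.51, ILMN_1713162 -0.33, ILMN_2201580 -0.49, GSTM3 -0.55, ILMN_1651800 -0.44 and ILMN_1716979 -0.40. At 72 h ILMN_1668134 gave -0.67, ILMN_2391861 -0.69, ILMN_1713162 -0.78, ILMN_2201580 -0.52, GSTM3 -0.72, ILMN_1651800 -0.14 and ILMN_1716979 -0.82. The names themselves cause this, since the same columns matched to the normalized table kept the signs. The median was 0.69 with an offset of 50 and 0.58 without background correction, which compress dim probes by construction, and 0.79 to 0.90 when single arrays were left out.

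Members called higher numbered 6 to 7 over the 3 times, 2 to 5 at 48 h and 3 to 5 at 72 h without single arrays, and 7 at 48 h and 6 at 72 h with an offset of 50 or no background correction. Counts of all called probes moved more. The mean comparison called 208, and 384 without background correction, 107 without a detection filter, 435 with a variance trend and robust estimation, 0 with the scanner names and 130 to 185 without single arrays. At 24 h the 48 calls became 87 with an offset of 50, 110 without background correction, 12 without a filter, 136 with the trend, 6 from the 4 arrays alone, 0 with the scanner names and 10 to 38 without single arrays. At 48 h the 63 calls became 112 without background correction, 22 without a filter, 127 with the trend, 14 from the 4 arrays alone, 0 with the scanner names and 21 to 63 without single arrays. At 72 h the 38 calls became 70 with an offset of 50, 85 without background correction, 25 without a filter, 96 with the trend, 13 from the 4 arrays alone, 0 with the scanner names and 22 to 38 without single arrays. In empty vector cells the 1 call at 48 h against 24 h became 12 with an offset of 50, 35 without background correction, 57 with the trend, 3 with detection on at least 6 arrays, and 0 with quantile normalization, no filter, unnamed probes included, the 4 arrays alone or the scanner table under either naming, and 0 to 1 without single arrays. The 0 calls at 72 h against 24 h became 10, 42, 73 and 7 under the first 4 of these, 7 with 1 probe a gene and 0 to 1 without single arrays. Apart from the construction of each alternative the cause was not tested. With the replicate block, which takes same-numbered arrays of a time as pairs, 23 probes were called at 24 h and 29 at 48 h, and empty vector times cannot be blocked this way. Probes near 128.3, such as GSTM4 ILMN_1651800, are limited by signal over background.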
